A study of Mus musculus with 9 samples.

Results

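The genes of the liver X receptors (LXRs), of cholesterol efflux and of cholesterol ester storage were followed in unstimulated RAW264.7 cells, an established mouse macrophage line, with and without an intact C/EBPδ, a transcription factor of the C/EBP family. They were chosen by name, with earlier results of these data known. The genes were Nr1h2, Nr1h3, Abca1, Abcg1, Mylip, Apoe, Apoc2, Lpcat3, Soat1 and Nceh1, 10 of the 55487 gene identifiers that were counted in each library. RNA-seq libraries came from 3 genotypes with 3 libraries each: wild-type cells (genotype label CEBPD wild type), C/EBPδ knock-out cells (CEBPD KO), and ΔTAD cells, in which CRISPR/Cas9 had deleted the transactivation domain of C/EBPδ (CEBPD TAD mutant). All 9 libraries were from untreated cells of the same line in the same medium, and both edited genotypes had gone through transfection with guide and Cas9 plasmids, sorting, puromycin selection and outgrowth from single cells. Clones whose deletion had put the reading frame out of register served as knock-outs, so both edited genotypes carry a deletion in the same stretch of the gene, although the design text describes the knock-out as a complete deletion. The design text speaks of 3 independent clones. For cells stimulated with lipopolysaccharide, the paper describes fewer than 3 individual clones per genotype, wild-type clones included. Whether the wild-type libraries here were also clones, and whether libraries of a genotype share a clone, was not stated. Effects of cloning and of the C/EBPδ genotype therefore cannot be told apart. P-values measure the spread between these libraries.

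LXRα, encoded by Nr1h3, and LXRβ, encoded by Nr1h2, are nuclear receptors that bind oxidised cholesterol derivatives and pair with a retinoid X receptor on direct repeats of a short DNA motif. In macrophages loaded with cholesterol they are known to raise transcription of genes that carry cholesterol out of the cell (Abca1, Abcg1, Apoe, Apoc2), limit its uptake (Mylip) and remodel membrane phospholipids (Lpcat3). Cholesterol that stays in the cell is esterified by the product of Soat1 and stored in droplets, from which hydrolases, among them the product of Nceh1, release it again.

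Gene counts summed to between 16113306 and 20981829 per library, 46.65% to 53.23% of all records. The library ΔTAD 1 stood apart: 16.28% of its records were not uniquely aligned, against 11.78% to 13.58% in the other libraries, and its TMM scaling factor was 0.888, against 0.9993 to 1.0268. Levels are given as CPM, reads of a gene scaled to a common library total, after this scaling, and 3 counts, the most that a count of 0 allows, stood for 0.143 to 0.21 CPM, which covers counting error only. Cebpd itself, the targeted gene, measured 6.13, 7.29 and 6.12 CPM in the wild-type libraries, 5.22, 5.5 and 5.61 CPM in the knock-out libraries, and 4.9, 5.23 and 6.19 CPM in the ΔTAD libraries, and was called in neither comparison with wild-type. The deletion removes only a stretch of the transcript, so the gene count does not check the genotype labels. All 8 macrophage markers examined were detected in these cells. Their summed level was 3627 to 3830 CPM in wild-type, 5204 to 5624 in knock-out and 7642 to 7830 in ΔTAD libraries, which moved in the same order as Abca1 and Abcg1 below, and the part of this in their differences was not tested. Lyz2 had the highest level of the 8, at means of 1167, 2114 and 4192 CPM. Of the 8, 6 were called higher in the knock-out and 7 in ΔTAD macrophages, beside 22.8% and 26.3% of all tested genes. In both, 0 were called lower. Adgre1 rose by 1.45 and 1.71 on the log2 scale. Itgam was called in neither edited genotype (−0.16 and −0.14), and Csf1r was not called in the knock-out (−0.06). The mean of Mpeg1 was highest in the knock-out (868 CPM, against 817 in ΔTAD). Markers of fibroblasts, epithelial, T and B cells had at most 3 counts in any library. Chromosomes 12 and 17 were shifted as a whole in both edited genotypes, with a median log2 fold change against wild-type of −0.52 and −0.54 for the 541 tested genes on chromosome 12 (knock-out and ΔTAD) and of 0.48 and 0.50 for the 746 on chromosome 17, where Abcg1 lies. In bulk RNA, fewer cells that express a gene and less of its RNA per cell cannot be told apart.

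Of the 10 genes, 9 had enough counts to be tested among 14312 genes, with edgeR's quasi-likelihood test, and a gene was called at a Benjamini-Hochberg adjusted p below 0.01. Compared to wild-type macrophages, 5 of the 9 rose and 1 fell in the knock-out, where 45.2% of all tested genes were called (22.8% higher, 22.4% lower). In ΔTAD macrophages 6 rose and 2 fell, against 49.7% of all tested genes called (26.3% higher, 23.4% lower). The rises were led by the efflux transporters Abca1 and Abcg1, followed by Mylip and Nceh1, while the receptor genes themselves moved little and Soat1 fell. The median log2 fold change of the 9 genes was 0.24 in the knock-out and 0.44 in ΔTAD macrophages, beside −0.001 and −0.003 over all tested genes. Both comparisons share the wild-type libraries, so their directions are not independent of each other.

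**Figure D1:**
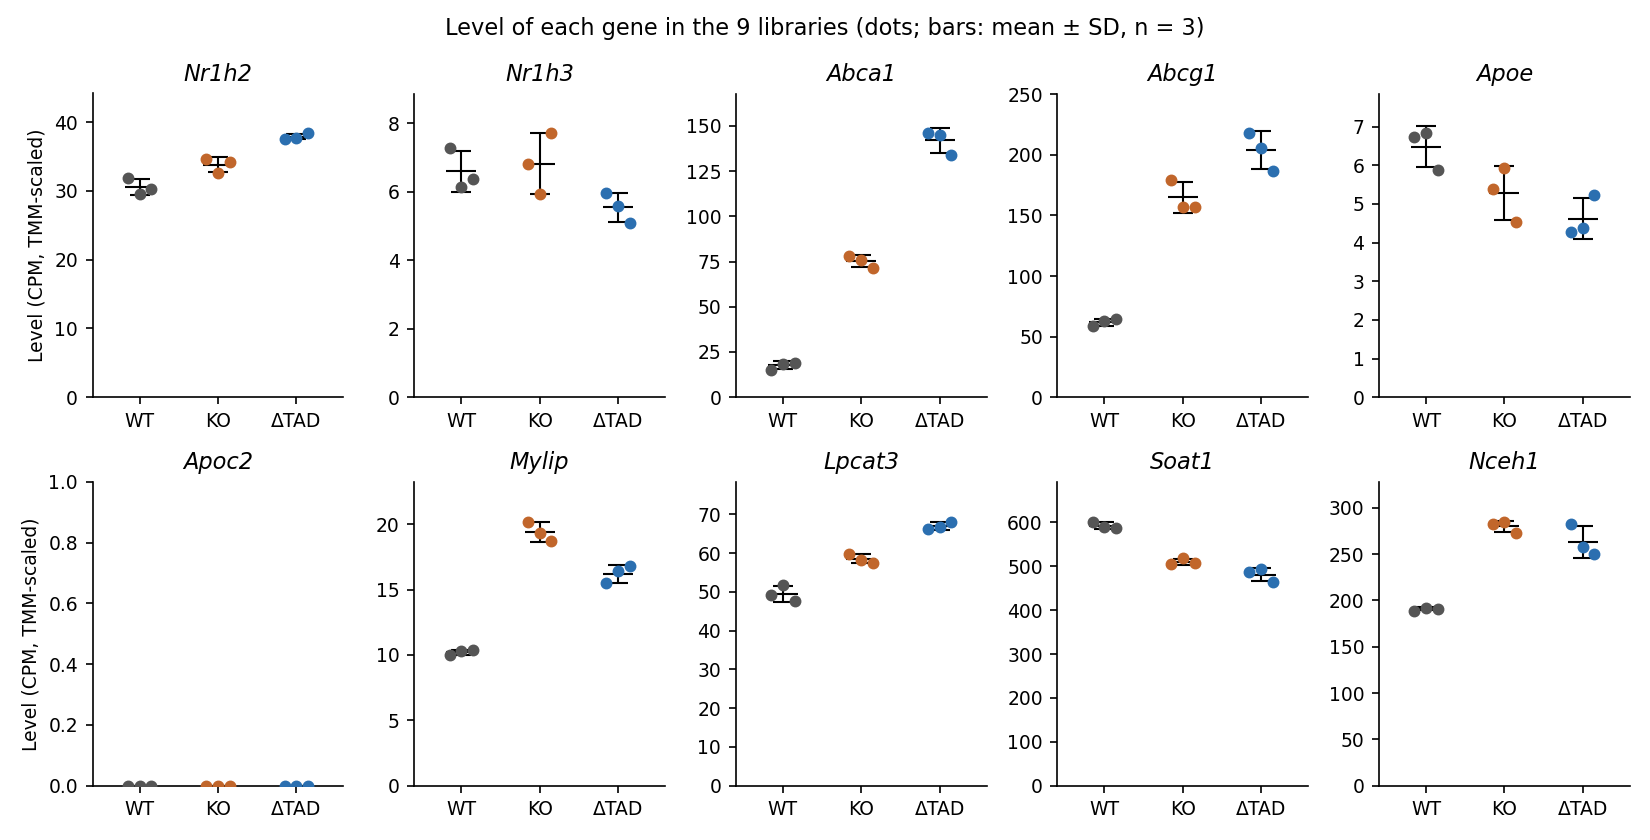
Level of each gene in CPM (y axis, from 0, a scale of its own per gene) in the wild-type (WT), knock-out (KO) and ΔTAD libraries; dots are libraries, bars the mean ± SD (n = 3). Abca1 and Abcg1 show the widest steps between the genotypes, Apoc2 is at 0 in all 9 libraries, and Soat1 is highest in wild-type cells.

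**Figure D2:**
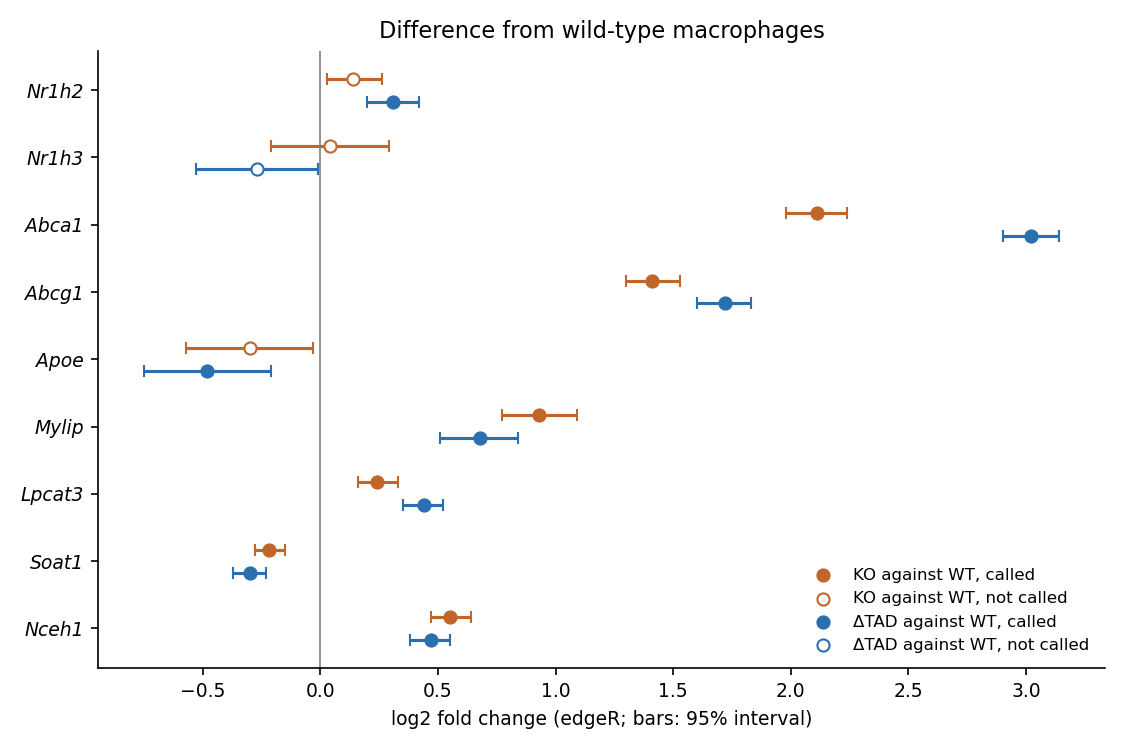
Log2 fold change of the 9 tested genes against wild-type (x axis) in knock-out (orange) and ΔTAD (blue) macrophages, with bars for the 95% interval of the edgeR estimate and filled dots for called genes. Abca1 lies at 2.11 and 3.02, Abcg1 at 1.41 and 1.72, and Apoe and Soat1 lie below 0.

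The receptors were addressed first. Nr1h2 (LXRβ; ENSMUSG00000060601, chromosome 7 from 44549616 to 44553951, minus strand) measured 31.9, 29.5 and 30.3 CPM in wild-type, 34.6, 32.6 and 34.2 CPM in knock-out and 37.6, 37.7 and 38.4 CPM in ΔTAD libraries. The 3 ΔTAD libraries were the highest and the wild-type libraries the lowest, with no overlap between genotypes. The rise in ΔTAD macrophages was 1.24-fold (log2 fold change 0.31, SE 0.0541, adjusted p = 2.63e-05, edgeR). In the knock-out the difference, 0.14 on the log2 scale with a 95% interval from 0.03 to 0.26, was not called (adjusted p = 0.0296, edgeR).

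Nr1h3 (LXRα; ENSMUSG00000002108, chromosome 2 from 91184061 to 91202834, minus strand) was the weaker expressed receptor. Wild-type libraries had 7.28, 6.13 and 6.36 CPM, knock-out libraries 6.8, 5.92 and 7.71 CPM and ΔTAD libraries 5.95, 5.57 and 5.09 CPM. The knock-out libraries spanned the whole wild-type range, whereas the ΔTAD libraries lay just below it. Neither difference was called: the log2 fold change was 0.04 (95% interval −0.21 to 0.29) in the knock-out and −0.27 (−0.53 to −0.01) in ΔTAD macrophages. Per kilobase of exon, LXRβ transcript exceeded LXRα transcript 3.28- to 3.61-fold in the wild-type libraries, 3.32- to 4.12-fold in the knock-out and 4.74- to 5.65-fold in ΔTAD libraries. The ΔTAD ratios were thus the highest, with no overlap, and those of wild-type and knock-out overlapped.

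Abca1 encodes the transporter that hands cholesterol and phospholipid to lipid-poor apolipoprotein A-I, and it changed more than any other of the 10 genes. The gene (ENSMUSG00000015243) spans chromosome 4 from 53030787 to 53159895 on the minus strand, with 10363 exon bases. Its promoter is shown because it holds a spaced direct repeat of the kind bound by LXR and its partner. Of the 9 genes with a RefSeq entry, Abcg1 having none, only Abca1 held the letters described below in its window. The 250 bases before its RefSeq start (GRCm38.p6, chr4:53159896-53160145, minus strand, read 5′ to 3′) are given with the repeat, 67 to 52 bases before the start, in capitals:
Abca1 promoter: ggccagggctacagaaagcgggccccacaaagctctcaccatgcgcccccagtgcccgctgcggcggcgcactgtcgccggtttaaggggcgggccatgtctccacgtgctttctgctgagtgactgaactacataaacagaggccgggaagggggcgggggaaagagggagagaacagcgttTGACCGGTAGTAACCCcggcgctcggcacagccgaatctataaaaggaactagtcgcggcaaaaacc
The letters searched, on either strand, were the half-site NGGTNA followed by another NGGTNA after a gap of 4 bases. They were chosen after this promoter was read, so the match in Abca1, on the opposite strand, was given in advance. Among all 32851 RefSeq windows of 300 bases (250 before to 50 after a start), 0.718% hold them, and a match is a description of the sequence only. Bases outside the windows were not searched. The C/EBP motif TTGCNNAA, searched on both strands, was in 10.8% of all windows and in none of the 12 windows of these 9 genes.

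Abca1 was at 15.1, 18.5 and 19.1 CPM in the wild-type libraries, 77.9, 76.1 and 71.5 CPM in the knock-out libraries, and 146, 145 and 134 CPM in the ΔTAD libraries. The genotypes formed 3 separate steps, and the distance between them was many times the spread within them. The rise over wild-type was 4.31-fold in the knock-out (log2 fold change 2.11, SE 0.0627, adjusted p = 4.90e-19, edgeR) and 8.11-fold in ΔTAD macrophages (3.02, SE 0.058, adjusted p = 7.43e-23, edgeR). These changes ranked 109 and 57 from the top among the 14312 tested genes. Genes around Abca1 did not share a shift: the median of the 10 nearest tested genes on each side was 0.02 in ΔTAD macrophages, and Abca1 lay 2.14 (knock-out) and 2.99 (ΔTAD) above the median of the other chromosome 4 genes.

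Abcg1 encodes a transporter that moves cholesterol toward high-density lipoprotein particles. The gene (ENSMUSG00000024030) spans chromosome 17 from 31057675 to 31117988 on the plus strand. Its level was 58.9, 62.5 and 64.6 CPM in the wild-type libraries, 179, 157 and 157 CPM in the knock-out and 218, 206 and 187 CPM in ΔTAD libraries. All edited libraries were far above wild-type, and the lowest ΔTAD library was above the highest knock-out library. Abcg1 rose 2.66-fold in the knock-out (log2 fold change 1.41, SE 0.0554, adjusted p = 1.23e-16, edgeR) and 3.28-fold in ΔTAD macrophages (1.72, SE 0.0551, adjusted p = 1.80e-18, edgeR). Set against the shifted chromosome, Abcg1 was 0.93 and 1.22 above the median of the other chromosome 17 genes, and 1.19 and 1.62 above that of its 20 nearest tested neighbours, for which the median was 0.22 and 0.10.

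**Figure D3:**
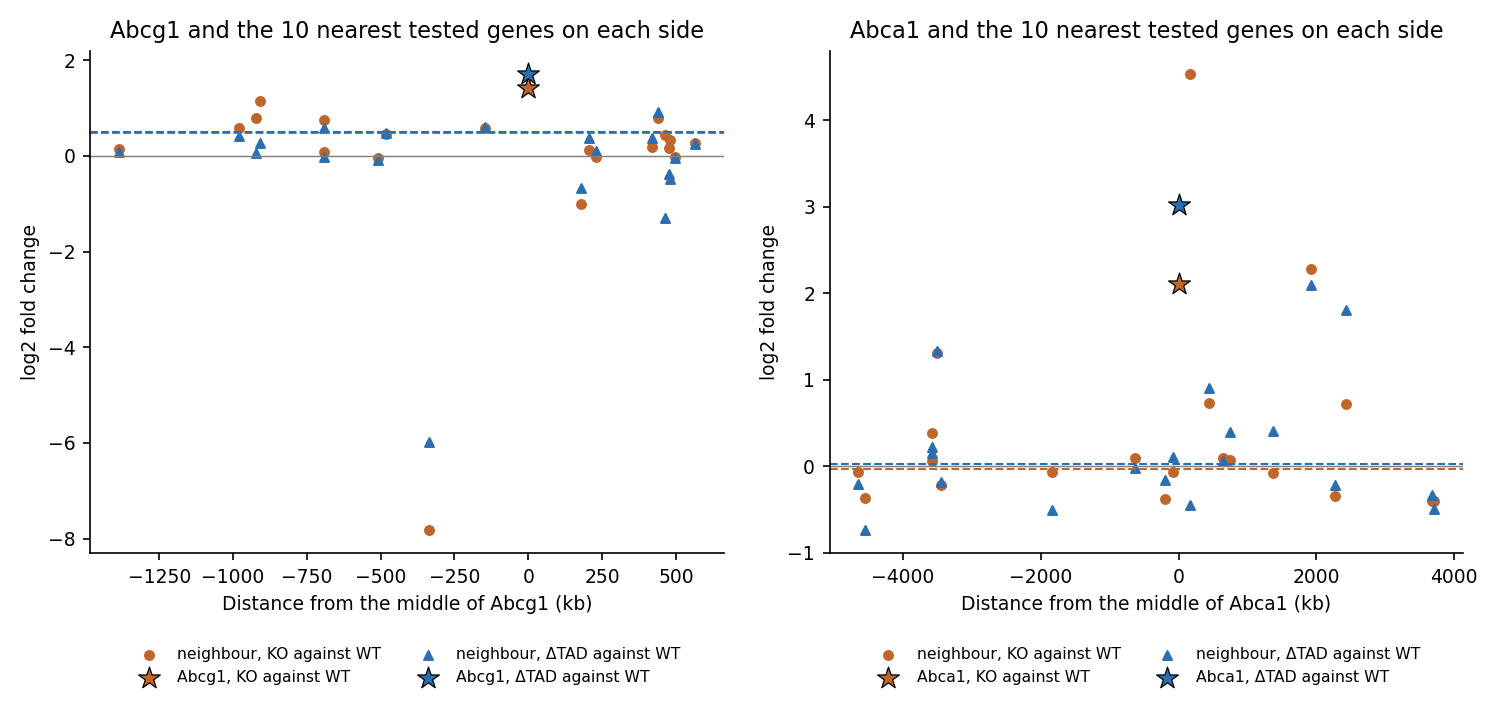
Log2 fold change against wild-type (y axis) of Abcg1 (left) and Abca1 (right), drawn as stars, and of the 10 nearest tested genes on each side, by distance in kb (x axis); circles stand for knock-out, triangles for ΔTAD, and dashed lines for the median of the chromosome. Abcg1 lies above its neighbours and above the raised chromosome 17 median, the Abca1 neighbours have a median near 0 but include AI427809 at 4.54 and Zfp462 at 2.28 in the knock-out, and the lowest points on the left are Dnah8, which had at most 1 count in any edited library and so gives no size.

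Of the apolipoprotein genes, which encode acceptors that carry the exported cholesterol, only Apoe could be tested. Apoe (ENSMUSG00000002985, chromosome 7 from 19696109 to 19699188, minus strand), whose product is the main apolipoprotein secreted by macrophages, was low in this line. It had 61 to 135 counts in a library, which gave 6.73, 6.83 and 5.87 CPM for wild-type, 5.38, 5.92 and 4.53 CPM for knock-out and 4.27, 4.37 and 5.23 CPM for ΔTAD libraries. The ΔTAD libraries were all below the wild-type libraries, while knock-out and wild-type overlapped. Apoe fell by 0.48 on the log2 scale in ΔTAD macrophages, 1.39-fold lower than wild-type (SE 0.132, adjusted p = 0.00317, edgeR). This call was lost without wild-type library 1 (adjusted p = 0.0141), wild-type library 2 (0.0167) or ΔTAD library 2 (0.0181), and its adjusted p ranged from 0.000314 to 0.0181 over all alternatives. In the knock-out the log2 fold change was −0.30 (95% interval −0.57 to −0.03) and was not called (adjusted p = 0.0539, edgeR).

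Apoc2 (ENSMUSG00000002992, chromosome 7 from 19671579 to 19677941, minus strand), which encodes the activator of lipoprotein lipase and lies close to Apoe, had 0 counts in all 9 libraries, which allows at most 0.143 to 0.21 CPM per library. Of its exon bases 79.5% are shared with Gm44805, a transcript annotated on the same strand that also had 0 counts, and how reads in shared bases were assigned is not stated, so the count does not show the transcript to be absent.

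Mylip and Lpcat3 are LXR targets that act on lipid uptake and on membranes. Mylip encodes the ubiquitin ligase, also called IDOL, that marks lipoprotein receptors for degradation, and lies on chromosome 13 from 45389742 to 45412022 on the plus strand (ENSMUSG00000038175). It had 9.97, 10.3 and 10.4 CPM in wild-type, 20.2, 19.3 and 18.7 CPM in knock-out and 15.5, 16.4 and 16.8 CPM in ΔTAD libraries. Here the knock-out libraries, not the ΔTAD libraries, were the highest, and no genotype overlapped another. Mylip rose 1.9-fold in the knock-out (log2 fold change 0.93, SE 0.0774, adjusted p = 2.19e-10, edgeR) and 1.6-fold in ΔTAD macrophages (0.68, SE 0.0791, adjusted p = 6.89e-08, edgeR). Its promoter is shown because C/EBP proteins and other factors are described as binding CCAAT-containing sites, and it holds this box 3 times within the 250 bases before the start, each on the opposite strand (in capitals, starting 190, 108 and 67 bases before the start; GRCm38.p6, chr13:45389492-45389741, plus strand, RefSeq):
Mylip promoter: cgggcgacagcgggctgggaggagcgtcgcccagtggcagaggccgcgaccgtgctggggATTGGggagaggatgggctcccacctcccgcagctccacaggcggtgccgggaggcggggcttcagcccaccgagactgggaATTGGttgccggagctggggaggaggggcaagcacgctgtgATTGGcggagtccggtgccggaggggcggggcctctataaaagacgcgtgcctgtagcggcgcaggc
Lpcat3 holds CCAAT 4 times in its window, so the box is not particular to Mylip. CCAAT, searched on both strands, was present in 37.4% of all RefSeq windows and in those of 4 of the 9 genes (Mylip, Lpcat3, Soat1 and Nceh1). Of these 4 genes, Soat1 fell in both edited genotypes and the other 3 rose, and a part of the box in these changes was not tested.

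Lpcat3 (ENSMUSG00000004270, chromosome 6 from 124663027 to 124704418, plus strand) encodes the acyltransferase that puts polyunsaturated fatty acids into phospholipids. Its levels were 49.2, 51.7 and 47.7 CPM in wild-type, 59.7, 58.2 and 57.5 CPM in knock-out and 66.1, 66.7 and 68.1 CPM in ΔTAD libraries. The steps were small but the libraries of the 3 genotypes did not overlap. Lpcat3 rose 1.18-fold in the knock-out (log2 fold change 0.24, SE 0.0413, adjusted p = 2.29e-05, edgeR) and 1.35-fold in ΔTAD macrophages (0.44, SE 0.0403, adjusted p = 1.14e-09, edgeR). Emg1 on the opposite strand covers 10.2% of its exon bases, and whether counting used strand is not stated. Its 20 nearest tested genes had medians of 0.13 and 0.27, so that Lpcat3 exceeded its neighbours by only 0.11 and 0.17.

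Soat1, a gene of cholesterol esterification, and Nceh1, a gene of ester hydrolysis, moved in opposite directions at the RNA level. Soat1 (ENSMUSG00000026600, chromosome 1 from 156424525 to 156474331, minus strand), encoding the enzyme that esterifies cholesterol, had 602, 589 and 588 CPM in wild-type, 505, 519 and 507 CPM in knock-out and 486, 493 and 465 CPM in ΔTAD libraries. Wild-type libraries were the highest, without overlap. Soat1 was 1.16-fold lower in the knock-out (log2 fold change −0.22, SE 0.0324, adjusted p = 3.71e-06, edgeR) and 1.23-fold lower in ΔTAD macrophages (−0.30, SE 0.0324, adjusted p = 1.81e-08, edgeR).

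Nceh1 (ENSMUSG00000027698, chromosome 3 from 27182965 to 27284608, plus strand), encoding a neutral cholesterol ester hydrolase, had 189, 192 and 191 CPM in wild-type, 282, 285 and 273 CPM in knock-out and 282, 258 and 250 CPM in ΔTAD libraries. All edited libraries were above the wild-type libraries, and the edited genotypes overlapped each other. Nceh1 rose 1.47-fold in the knock-out (log2 fold change 0.55, SE 0.0408, adjusted p = 2.12e-11, edgeR) and 1.38-fold in ΔTAD macrophages (0.47, SE 0.0408, adjusted p = 4.48e-10, edgeR). Per kilobase of exon, the ratio of Soat1 to Nceh1 was 1.71, 1.65 and 1.65 in wild-type, 0.961, 0.978 and 0.996 in knock-out, and 0.922, 1.03 and 0.998 in ΔTAD libraries. All wild-type ratios were above those of the edited genotypes, which lay on either side of 1.

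Next, the edited genotypes were compared with each other. These are different clones, so here too effects of cloning and of genotype cannot be told apart. Here 33% of all tested genes were called (13.9% higher and 19.1% lower in the knock-out), and of the 9 genes 1 was higher and 3 were lower in the knock-out. Abca1 was 1.88-fold higher in ΔTAD than in knock-out macrophages (log2 fold change of knock-out against ΔTAD −0.91, SE 0.0459, adjusted p = 6.45e-14, edgeR). The same comparison gave −0.31 for Abcg1 (SE 0.0509, adjusted p = 3.41e-05, edgeR) and −0.20 for Lpcat3 (SE 0.0394, adjusted p = 0.000272, edgeR). Mylip went the other way, 1.19-fold higher in the knock-out (log2 fold change 0.25, SE 0.0707, adjusted p = 0.00566, edgeR). The Lpcat3 call was lost when libraries were scaled by their size alone (−0.12, adjusted p = 0.134, with a range of 1.44e-05 to 0.134 over the alternatives). The Mylip call was lost, among other settings, with DESeq2 (adjusted p = 0.0202), with every gene of at least 1 count kept (0.0214), and without knock-out library 1 (0.0308), knock-out library 2 (0.013), ΔTAD library 1 (0.0114) or ΔTAD library 2 (0.0202), in a range of 0.003 to 0.0308.

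The other 5 genes were not called between the edited genotypes. The 95% intervals of the log2 difference, knock-out minus ΔTAD, were −0.28 to −0.05 for Nr1h2, 0.05 to 0.57 for Nr1h3, −0.11 to 0.46 for Apoe, 0.02 to 0.15 for Soat1 and 0.01 to 0.17 for Nceh1. Without the library ΔTAD 1, both Soat1 (0.12, adjusted p = 0.00616, range 0.00616 to 0.224, edgeR) and Nceh1 (0.17, adjusted p = 0.00025, range 0.00025 to 0.385, edgeR) were called higher in the knock-out.

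Ordered by level per kilobase of exon in wild-type cells, Soat1 came first at 60.5 ± 0.804 CPM per kb (SD, n = 3), followed by Nceh1 at 36.3 ± 0.311 and Lpcat3 at 15.2 ± 0.614. Nr1h2 (9.11 ± 0.356) and Abcg1 (8.5 ± 0.397) overlapped, as did Mylip (3.16 ± 0.0643) with Apoe (3.03 ± 0.246) and Apoe with Nr1h3 (2.62 ± 0.241). Abca1, at 1.69 ± 0.211 CPM per kb, was the lowest of the 9 detected genes. In the knock-out, Nceh1 and Soat1 overlapped at the top (53.3 ± 1.12 and 52.1 ± 0.774), Abcg1 had passed Lpcat3 (22.5 ± 1.74 against 17.9 ± 0.347), and Abca1 stood at 7.25 ± 0.32, above Mylip, Nr1h3 and Apoe. In ΔTAD macrophages Abca1 reached 13.7 ± 0.674 CPM per kb and had also passed Nr1h2 at 11.3 ± 0.124. Apoe and Nr1h3 overlapped at the bottom in both edited genotypes. Transcript of Abcg1 exceeded that of Abca1 per kb 4.79- to 5.55-fold in wild-type, 2.94- to 3.27-fold in knock-out and 1.99- to 2.13-fold in ΔTAD libraries, with no overlap between genotypes.

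The wider pathway was described with 5 lists of 61 genes, 47 of which could be tested. The lists were chosen with earlier results of these data known, so the shares called here and for each list are a description only. In the knock-out 19 rose and 11 fell, and in ΔTAD macrophages 24 rose and 8 fell, with medians of 0.10 and 0.12. These calls were 63.8% and 68.1% of the list genes tested, beside 45.2% (22.8% higher, 22.4% lower) and 49.7% (26.3% higher, 23.4% lower) of all tested genes. With libraries scaled by their size alone, the ΔTAD split was 18 higher and 11 lower. The 3 tested list genes on chromosomes 12 and 17 were Ncoa1, Npc2 and Rxrb, and among the remaining 44 genes 18 rose and 9 fell in the knock-out and 23 rose and 7 fell in ΔTAD macrophages.

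Of 22 other LXR target genes, 15 were tested, of which 8 rose and 4 fell in the knock-out (80% called, beside 45.2% of all tested genes) and 11 rose and 4 fell in ΔTAD macrophages (100% called, beside 49.7%). The 7 that were not tested, among them Abcg5, Abcg8 and Mertk, had at most 10 counts in a library. Pltp, encoding phospholipid transfer protein, measured 46.4 ± 0.612 CPM in wild-type and 63.5 ± 2.64 CPM in knock-out libraries (SD, n = 3), and rose by 0.45 on the log2 scale in the knock-out (adjusted p = 5.67e-10, edgeR) and by 1.17 in ΔTAD macrophages (adjusted p = 1.60e-18, edgeR). This was the same order of genotypes as for Abca1. Smpdl3a, a phosphodiesterase gene, rose by 1.05 on the log2 scale in ΔTAD macrophages, while its 0.37 in the knock-out was not called. Fads1, a fatty acid desaturase gene, rose by 0.60 and 0.75, and Tgm2, encoding tissue transglutaminase, by 0.60 and 0.56. The genes that fell were the same 4 in both edited genotypes. They were Cd5l, encoding a secreted macrophage protein (−1.15 and −0.81), Fasn, the fatty acid synthase gene (−0.47 and −0.28), and, named after their values were seen, Rnf145 (−0.35 and −0.23) and Acaca, encoding an acetyl-CoA carboxylase (−0.18 and −0.17). Srebf1, the LXR target whose product drives Fasn and Acaca and which was also named after its values were seen, rose by 0.31 and 0.48.

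Among the partners and coregulators of LXR, 12 of 13 were tested, of which 4 rose and 2 fell in the knock-out and 3 rose and 1 fell in ΔTAD macrophages. These shares, 50% and 33.3%, were near and below the 45.2% and 49.7% of all tested genes. Rxrb, encoding a retinoid X receptor, rose by 0.45 and 0.68, beside a chromosome 17 median of 0.48 and 0.50. Rxra, encoding another, rose by 0.36 in the knock-out, whereas the 0.10 measured with ΔTAD was not called. Ncoa1, a coactivator gene on chromosome 12, fell by 0.65 and 0.86, beside a chromosome median of −0.52 and −0.54. Gps2, encoding a corepressor subunit, rose by 0.46 in ΔTAD macrophages, and Tbl1x, encoding another, fell by 0.21 in the knock-out. The remaining calls were small rises of Ncoa3 (0.18 and 0.21) and, in the knock-out, Tbl1xr1 (0.18), both named after their values were seen.

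**Figure D4:**
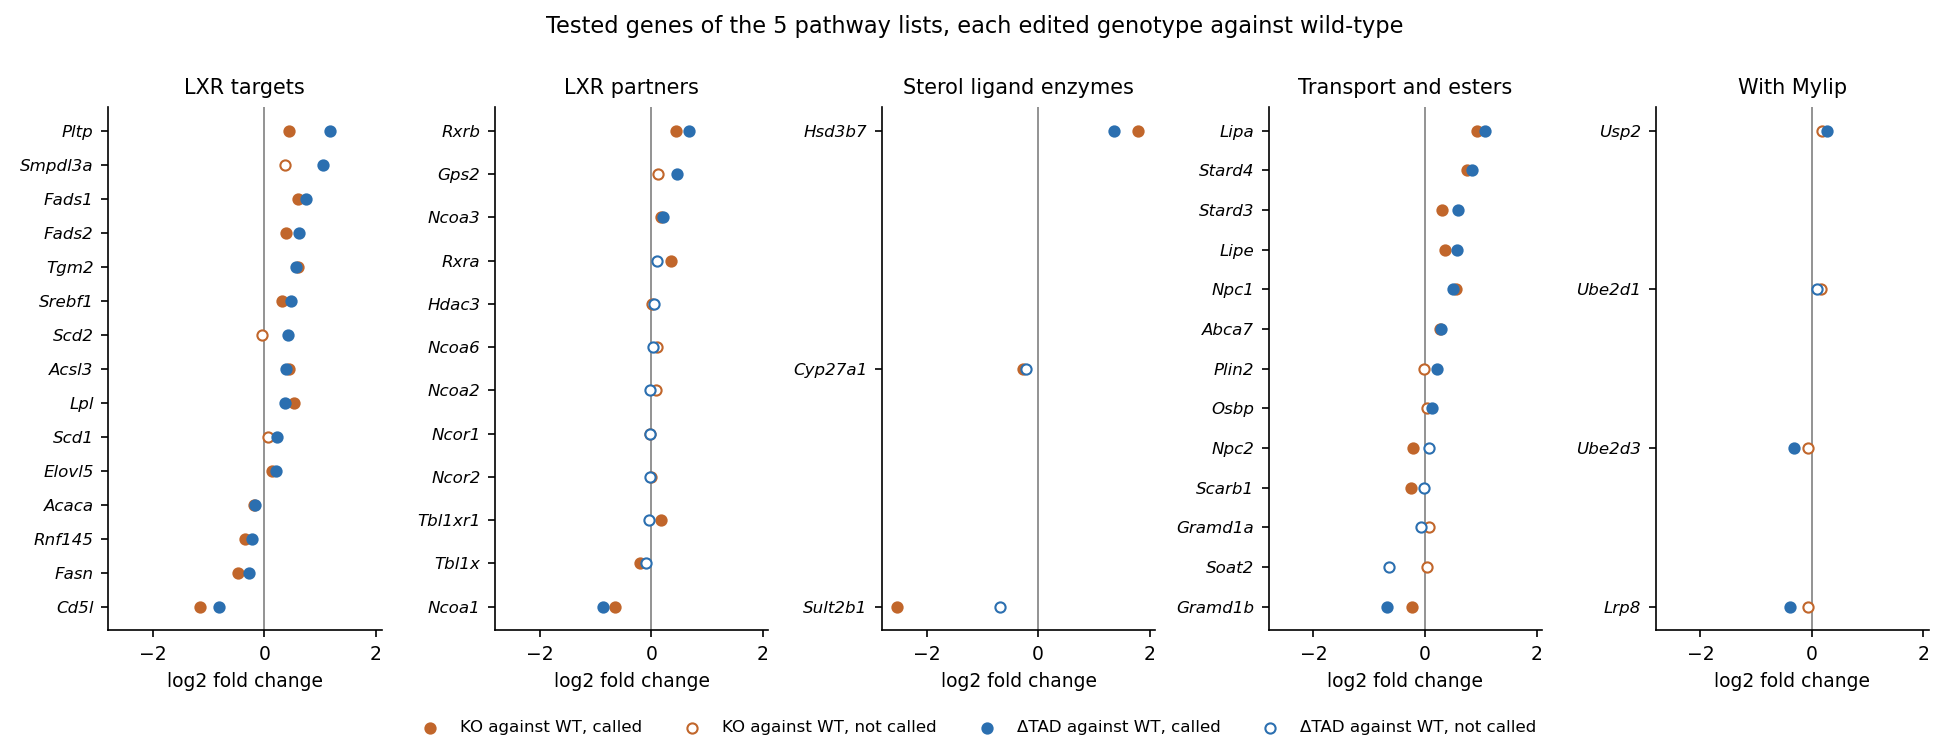
Log2 fold change against wild-type (x axis) of the 47 tested genes of the 5 lists in knock-out (orange) and ΔTAD (blue) macrophages, filled where called. Most called LXR targets lie to the right of 0, and the knock-out point of Sult2b1 rests on at most 3 counts in a library and gives no size.

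The enzymes that make or remove sterol ligands were mostly weakly expressed, with 3 of 6 tested and Ch25h, Cyp7b1 and Cyp46a1 at no more than 6 counts in a library. In the knock-out 1 rose and 2 fell, and in ΔTAD macrophages 1 rose, beside 45.2% and 49.7% of all tested genes called. Hsd3b7, which acts in bile acid synthesis from oxysterols, rose from 12, 5 and 12 counts in wild-type to 37, 34 and 29 in knock-out and 20, 29 and 29 in ΔTAD libraries (log2 fold changes 1.79 and 1.36). Cyp27a1, which makes 27-hydroxycholesterol, fell by 0.28 in the knock-out, whereas the −0.21 measured with ΔTAD was not called. Sult2b1, encoding a sulfotransferase of sterols and named after its values were seen, was called lower in the knock-out, with 3, 2 and 1 counts against 15, 10 and 12 in wild-type and 2, 15 and 7 in ΔTAD libraries.

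Of 15 genes of cholesterol transport and ester turnover 13 were tested, of which 6 rose and 3 fell in the knock-out and 8 rose and 1 fell in ΔTAD macrophages, 69.2% in both, beside 45.2% and 49.7% of all tested genes. Lipa, encoding the lysosomal acid lipase that frees cholesterol from lipoprotein esters, rose from 363 ± 5.87 CPM in wild-type to 692 ± 15.3 in knock-out and 762 ± 47.2 in ΔTAD libraries (log2 fold changes 0.93 and 1.07, n = 3). Stard4, which encodes a cytosolic sterol carrier, rose by 0.76 and 0.84. Gramd1b, encoding a protein that takes cholesterol from the plasma membrane to the endoplasmic reticulum, fell by 0.24 and 0.68. Scarb1, encoding a receptor for high-density lipoprotein, fell by 0.26 in the knock-out, with −0.01 measured for ΔTAD, which was not called. The third gene that fell in the knock-out was Npc2 (−0.21), named after its values were seen and located on the lowered chromosome 12.

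For the genes that act with the Mylip protein, 4 of 5 were tested, and 3 were called in ΔTAD macrophages, beside 49.7% of all tested genes. In ΔTAD macrophages Usp2, encoding a deubiquitinase, rose by 0.27, while Lrp8, another receptor targeted by Mylip, and Ube2d3, a ubiquitin-conjugating enzyme gene, fell by 0.40 and 0.32. Their log2 fold changes in the knock-out, 0.18, −0.07 and −0.07, were not called.

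Between the edited genotypes, 7 of the 47 list genes were higher and 16 lower in the knock-out, beside 13.9% higher and 19.1% lower among all tested genes (33% called). The counts were 7 higher and 5 lower when libraries were scaled by their size alone. Pltp (knock-out against ΔTAD −0.72) was among those lower in the knock-out under TMM scaling.

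Finally, the genes whose levels followed those of Abca1, Abcg1 and Apoe most closely over the 9 libraries were listed by Pearson's r of log2 CPM among genes of at least 10 CPM. The libraries fall into 3 genotype clusters, so r mostly describes the order of 3 genotype means and is given as a description. For Abca1 these were Plcb3 (r = 0.9984), Cep44 (0.9984) and Ptpro (0.9983), and 823 of 8943 genes had an r above 0.95. For Abcg1 they were Rnf144b (0.998), Slc44a1 (0.998) and Slc44a2 (0.997). The largest log2 fold changes among these 6 genes were 1.12 in the knock-out (Rnf144b) and 1.53 in ΔTAD macrophages (Ptpro), both below those of Abca1 and Abcg1. For Apoe, Pelp1 (0.9571), Eef1akmt2 (0.9431) and Ndufab1 (0.9423) were nearest, and only 1 of 8944 genes had an r above 0.95.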

How the data were processed

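The 9 RNA-seq libraries, 3 per genotype, were grouped by the genotype label. After removal of ribosomal RNA and single-read sequencing, the authors trimmed the reads with Trimmomatic (0.36 in the submitters' processing notes), aligned them to GRCm38 with Hisat2 (2.3.4.3 in those notes) and counted them per Ensembl gene with HTSeq. The deposited values are raw counts, 1 list per library, and 5 tally lines (46.77% to 53.35% of records) were left out. Mode and strand of counting are not given in the sources used here, so values of overlapping and antisense genes are uncertain.

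Counts were tested with edgeR 4.0.16 (R 4.3.3): genes filtered by filterByExpr (minimum count 10, minimum total 15), TMM scaling, 1 quasi-likelihood model of all 9 libraries with a mean per genotype, and Benjamini-Hochberg adjustment over 14312 genes. Calls needed an adjusted p below 0.01. Gene counts of 16113306 to 20981829 per library set the precision, and the common biological coefficient of variation was 0.0468. Symbols, positions and exon lengths came from GENCODE M21, which matched 55141 of 55487 identifiers, and promoters from RefSeq (GRCm38.p6). Levels between genes were compared as CPM per kb of exon. The fit was checked on simulated counts, drawn with this common coefficient of variation for every gene. Of genes changed by 0.5 on the log2 scale 68.3% were called, and of those changed by 1 and by 2, 83.6% and 98.5%. Changes of 0.5 can thus go uncalled.

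The genes and lists were chosen with earlier results of these data known, and 2 list genes are not reported here. From each list, the text names the 2 called genes with the highest and the lowest log2 fold change in each edited genotype, provided that the higher group had 1 CPM or more and without overlap of libraries, and for Abca1, Abcg1 and Apoe the 3 genes of highest r. Other settings tried were limma-voom (limma 3.58.1), DESeq2 1.42.0, 3 other scalings (DESeq2 size factors, library size, TMM without chromosomes 12 and 17), 2 other filters, fits of 2 genotypes, a replicate block, 2 other thresholds, and leaving out each library. The donor labels gave the replicate numbers, and nothing in the labels pairs them.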

Additional observations from a re-analysis of the deposited data

Results flagged for a closer look

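Knock-out and ΔTAD libraries differed from each other, by their direct test in edgeR, for 4 of the 9 tested genes (44.4%). Among all tested genes the share called was 33%. These libraries come from different clones, so effects of cloning and of genotype cannot be told apart here. The log2 difference was −0.91 for Abca1 (adjusted p = 6.45e-14), −0.31 for Abcg1 (adjusted p = 3.41e-05), −0.20 for Lpcat3 (adjusted p = 0.000272) and 0.25 for Mylip (adjusted p = 0.00566), each of which rose in both edited genotypes against wild-type. The calls of Mylip and Lpcat3 were lost under some alternatives, as given with the comparison of the edited genotypes.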

How the results depend on the processing

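Abca1, Abcg1, Mylip, Lpcat3, Soat1 and Nceh1 kept their direction and their call against wild-type in both edited genotypes in all 19 alternatives without a minimum log2 fold change. The knock-out and ΔTAD log2 fold changes ranged from 2.01 to 2.17 and 2.91 to 3.09 for Abca1, and from 1.35 to 1.45 and 1.62 to 1.77 for Abcg1. Over the same 19 alternatives, 493 values for single genes kept direction and call, 8 gained and 11 lost a call, and 1 turned. The value that turned was Nr1h3 in the knock-out, 0.04, which was −0.06 without knock-out library 3 (adjusted p = 0.743, edgeR), in a range of −0.06 to 0.14 with libraries left out in turn. With a log2 fold change of at least 1 also required, the member genes numbered 2 higher and 0 lower for the knock-out, 2 and 0 for ΔTAD, and 0 and 0 between the edited genotypes, and the list genes 1 higher and 2 lower, 4 and 0, and 0 and 0. Leaving out libraries in turn, the members lower in ΔTAD macrophages numbered 1 to 2 (Apoe) and those higher in the knock-out than in ΔTAD 0 to 2. The latter count, 1, was 0 with every gene of at least 1 count and 3 at an adjusted p below 0.05. The list genes lower in the knock-out than in ΔTAD, 16, were 5 with library size alone, where the median of all genes was 0.043 instead of −0.028. Soat1 was also called between the edited genotypes with DESeq2 (0.10, adjusted p = 0.00624), and Nr1h2 with every gene of at least 1 count (−0.18, adjusted p = 0.00792). The cause of these changes was not tested. The replicate numbers did not pair the libraries: deviations of libraries of the same number correlated between −0.072 and 0.02. With the number as a replicate block, the count of members higher in the knock-out than in ΔTAD was 0 (Mylip, 0.25, adjusted p = 0.01, just missing the threshold), and no other member call changed. Depth limits genes of low count such as Apoe, Nr1h3, Hsd3b7 and Sult2b1.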
